A study of Mus musculus with 2 samples.

Results

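The myeloid cells of a single capture library were compared in this series of mouse liver immune cells from models of primary biliary cholangitis (PBC). For each CD45+ cell, the BD Rhapsody platform recorded transcripts as unique molecular identifiers (UMIs) together with the counts of 49 oligonucleotide-linked antibodies. The library pooled liver cells of wild type (WT) C57BL/6 mice with those of p40-/-IL-2Ra-/- mice, which lack the shared p40 subunit of IL-12 and IL-23 (gene Il12b) and the IL-2 receptor alpha chain (gene Il2ra). The labels gave an age of 10 weeks for the whole pool and did not state how many mice were pooled. The deposited cell metadata name WT cells of this library and hold no name for the p40-/-IL-2Ra-/- cells. The cells without a WT name are therefore called unnamed here. They should hold the p40-/-IL-2Ra-/- cells together with any WT cells that the authors' filter removed, and these could not be separated. No genotype was given cell by cell for them, and only the named cells are known to have passed that filter. Over all cells of the library, the mitochondrial share reached 23.4% in WT and 96.3% in unnamed cells, and UMIs per cell reached 21770 and 41825.

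Of 34137 cells in the series, 24111 were in this library, 7282 with a WT name and 16829 unnamed. A cell was taken as myeloid where it held at least 3 UMIs of Lyz2, the lysozyme gene of neutrophils, monocytes and macrophages, and no UMI of Cd3e or Cd79a, the T cell and B cell receptor chains. This selected 1027 cells, of which 199 were WT and 828 were unnamed. The choice used Lyz2, Cd3e and Cd79a, so their values only describe the selection. Summed over the selected cells, Lyz2 had 7278 UMIs in WT and 28821 in unnamed cells, and 3 WT cells held 20.4% of the WT total. Just inside the threshold, at exactly 3 Lyz2 UMIs, lay 29 WT and 89 unnamed cells, with a median of 29 and 62 UMIs of the neutrophil genes S100a8 and S100a9. Just outside, at exactly 2 Lyz2 UMIs, lay 51 WT and 127 unnamed cells, with a median of 25 and 37 UMIs of both genes. The rule took 12 of the 17 WT cells that the authors named Neu, 75 of 258 named Mono, 107 of 261 named Macro and 1 of 219 named pDC.

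The deleted receptor gene was measured first, in the T cells of the same library, since myeloid cells hardly express it. Il2ra had 706 UMIs in 2109 WT T cells (99.7 CPM, counts scaled to a common library total) and 260 UMIs in 7881 unnamed T cells (8.03 CPM), 12.4-fold lower in the unnamed cells. In the myeloid cells Il2ra had 1 UMI in each group and Il12b had 1 UMI in WT and 10 in unnamed cells, too few to check the labels. Il12b transcript was also counted in unnamed T cells, at 64 UMIs against 3 in WT T cells, and which part of the deleted gene these reads cover is not given in the sources used here.

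Total UMIs were 758572 in the 199 WT cells and 3387290 in the 828 unnamed cells, with a median per cell of 2585 and 3058. The median mitochondrial share was 3.10% in WT and 1.21% in unnamed cells, and 779 unnamed cells lay inside the range of the WT cells in both measures. Scrublet marked 3 WT and 15 unnamed cells as doublets, and 7 of the selected cells had an index that also occurs in the other library. Each group is a single summed profile of a single library, so no test between genotypes was possible and every interval is a 95% interval that covers counting error only. A log2 ratio below is the level in unnamed over that in WT cells, in CPM of the summed profile with 1 UMI added in all. A gene was compared where both profiles together held at least 10 UMIs, and a difference over 2-fold was counted as past the fold.

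Neutrophils mature in the bone marrow in steps that leave a record in their granules. Promyelocytes make the primary granule proteins (Mpo, Elane, Prtn3, Ctsg), myelocytes and metamyelocytes make the secondary granule proteins (Ltf, Camp, Ngp, Lcn2), and mature cells rely on receptors such as Csf3r and Cxcr2 and on inducible Il1b. Interferons act on all myeloid cells. Interferon-gamma induces GTPases of the Gbp and Irg families, the immunoproteasome and peptide transporters, and through the transactivator CIITA the MHC class II genes that present antigen to CD4 T cells.

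The selected cells fell into 10 clusters, and neutrophil-like cells were the larger share in the unnamed group. Neutrophil-like cells, named from 12 fixed markers, made up clusters 1, 3, 4, 5 and 8 and 86 of 199 WT cells (43.2%, Clopper-Pearson 36.2 to 50.4%) and 577 of 828 unnamed cells (69.7%, 66.4 to 72.8%). The difference was 26.5 percentage points (Newcombe interval 18.8 to 33.8). Mononuclear cells, with 111 WT and 237 unnamed cells, differed by -27.2 points (-34.5 to -19.5). They comprised nonclassical monocyte-like cells (Ace, Cd300e, Adgre4), classical monocyte-like cells (F13a1, Ms4a4c, Ccr2, with the dendritic cell gene Cd209a also among the leading genes), type 1 dendritic cell-like cells (Xcr1, Clec9a, Cadm1) and a small cluster led by Prg4, Alox15 and C1qc. The last cluster had 9 of 12 Kupffer cell markers but no UMI of Clec4f, the defining Kupffer cell lectin, in either group, and it is called cluster 9. A further 2 WT and 14 unnamed cells were NK-like. Clusters 4 and 8 had none of the 12 neutrophil markers among their 10 leading genes. In their unnamed cells all 12 were detected, at a summed 108664 and 168186 CPM. In WT, with 3 cells in each cluster, 9 and 8 of the 12 were detected, at 68646 and 230366 CPM. Detection alone does not set these cells apart. All 12 were also detected in nonclassical monocyte-like cells, at a summed 6752 CPM in WT and 8070 CPM in unnamed cells.

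Counted against all cells of their group, neutrophil-like cells were 1.18% of WT and 3.43% of unnamed cells, a difference of 2.25 points (1.87 to 2.61). Mononuclear cells were 1.52% and 1.41%, a difference of -0.116 points whose interval (-0.467 to 0.203) included 0. Nonclassical monocyte-like cells were a larger share of all unnamed cells (0.838% against 0.357%), while classical monocyte-like cells (0.321% against 0.563%), type 1 dendritic cell-like cells (0.190% against 0.398%) and cluster 9 (0.0594% against 0.206%) were smaller shares. These shares depend on how many lymphocytes each group held, and the number of cells per liver was not measured here. A rule that used S100a8 and S100a9 (at least 20 UMIs of both together) in place of Lyz2 found 200 WT and 928 unnamed cells, 2.75% and 5.51% of their groups.

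**Figure D1:**
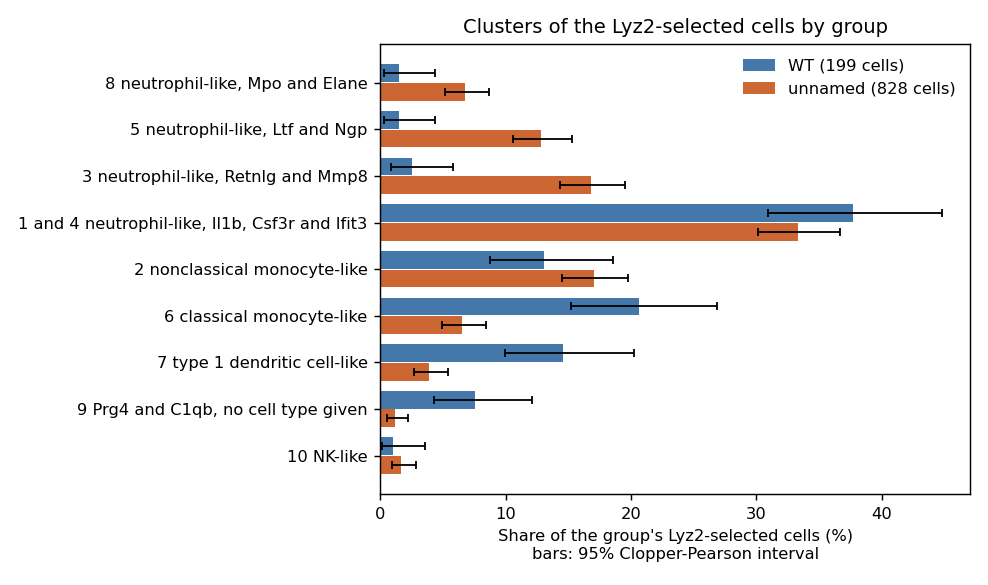
Share of each cluster among the Lyz2-selected cells of the WT and unnamed groups, in percent with 95% Clopper-Pearson intervals. Clusters 3, 5 and 8, the neutrophil-like cells with granule transcripts, are each under 3% of WT cells and 6.76 to 16.8% of unnamed cells, the joined clusters 1 and 4 are 37.7% and 33.3%, and clusters 6, 7 and 9 are larger shares in WT. The label of cluster 8 gives only some of its leading genes, which also include cell division genes, and most of its cells held no Mpo UMI.

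Most neutrophil-like WT cells carried another name in the deposited metadata. Of the 72 WT cells of cluster 1, the authors named 71 Mono, although all 12 neutrophil markers were detected there at a summed 70189 CPM in WT and 85665 CPM in unnamed cells. The same 12 genes summed to 4536 CPM in WT and 1411 CPM in unnamed classical monocyte-like cells. The surface antibody to Ly-6G had a median of 0 counts per cell in both groups, so this protein could not be used to check the name.

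Over the whole selection, neutrophil granule genes were at the high end of the ratios and macrophage and chemokine genes at the low end. Fewer cells of a type and less transcript per cell cannot be told apart in these summed profiles. Of 10506 genes compared, 9.72% were over 2-fold higher and 10.9% over 2-fold lower in the unnamed profile. Of 20 neutrophil granule genes, 13 were over 2-fold higher and 0 lower, with a median log2 ratio of 1.61 beside -0.14 over all genes. Camp, the antimicrobial cathelicidin, had 827 UMIs in WT and 25263 in unnamed cells, a log2 ratio of 2.77 (2.67 to 2.88). Itgb2l, an integrin chain of neutrophil precursors, had 12 and 679 UMIs (log2 ratio 3.64, 2.85 to 4.62). Of 16 complement and Kupffer identity genes compared, 13 were over 2-fold lower and 1, at 0 UMIs in WT, higher (0 with that gene at its bound, median log2 ratio -2.61), and of 15 chemokine genes 10 were lower and 0 higher (median -1.83). Prg4, which encodes the secreted glycoprotein lubricin, had 911 UMIs in WT and 307 in unnamed cells (log2 ratio -3.72, -3.92 to -3.54). Apoe, the lipid carrier of macrophages, had 2179 and 983 UMIs (log2 ratio -3.31). Some of these ratios rested on few cells: 3 cells held 49.8% of the WT and 81.9% of the unnamed UMIs of the complement gene C1qa, and 3 WT cells held 94.3% of the UMIs of Fscn1, a gene of migratory dendritic cells (70 UMIs in WT, 1 in unnamed cells).

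Within the neutrophil-like cells, the unnamed group held more cells of the granule-forming stages. Clusters 5 and 8, led by Ltf, Ngp and Lcn2 and by Mpo, Elane and Prtn3, held 6 of 86 WT cells (6.98%) and 162 of 577 unnamed cells (28.1%), a difference of 21.1 points (12.9 to 26.4). Cluster 8 was also led by the cell division genes Top2a, Rrm2 and Mki67, and most of its cells held no Mpo UMI. For cluster 8 alone the difference was 6.22 points with an interval (-0.42 to 9.75) that included 0. The difference also depended on the Lyz2 threshold. With at least 10 Lyz2 UMIs per cell, clusters 5 and 8 held 6 of 23 WT cells (26.1%) and 156 of 359 unnamed cells (43.5%), and the interval of the difference (-3.63 to 31.9) included 0. Cluster 3, led by Retnlg and Mmp8, held 5 WT and 139 unnamed cells. The clusters were made from these genes. The stage was also counted by a fixed rule on cells thinned to 1000 UMIs each. This rule reads leading genes of cluster 5 in the same cells, so it restates the split at a fixed depth and is not a separate check. At least 20 of 1000 UMIs came from Ltf, Camp, Ngp and Lcn2 in 8 of 86 WT cells (9.30%, 4.10 to 17.5%) and in 240 of 577 unnamed cells (41.6%, 37.5 to 45.7%), a difference of 32.3 points (23.4 to 38.4). Among the cells chosen by S100a8 and S100a9 the same rule took 8 of 200 WT and 244 of 928 unnamed cells. It took 0 of 1408 WT and 0 of 955 unnamed B cells, chosen with at least 3 Cd79a UMIs and no Cd3e or Lyz2 UMI. Since cells with Lyz2 were left out of these B cells beforehand, the counts are not a check of the rule.

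The secondary granule genes were higher in CPM in the unnamed neutrophil-like cells. Ltf, which encodes the iron-binding protein lactoferrin, was at 2647 CPM (530 UMIs) in WT and 6636 CPM (14762 UMIs) in unnamed cells, a log2 ratio of 1.33 (1.20 to 1.45). Camp was at 4089.9 and 11275.5 CPM (log2 ratio 1.46), Ngp, another secondary granule protein, at 13313 and 30330.5 CPM (1.19), and the neutrophil collagenase gene Mmp8 at 1338 and 3521 CPM (1.40). Lcn2, which encodes a protein that binds bacterial siderophores, had a log2 ratio of 0.98 (0.90 to 1.06). In WT these levels came from few cells, since 3 cells held from 56.7 to 60.6% of the UMIs of Ltf, Camp and Ngp, against 3.54 to 5.65% in the unnamed group. The gelatinase gene Mmp9 (log2 ratio 0.02, -0.11 to 0.16) and Retnlg, a resistin-like secreted protein gene (0.06, 0.01 to 0.11), differed by at most 1.04-fold.

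Primary granule transcripts were counted almost only in unnamed cells. Mpo (myeloperoxidase) had 1 UMI in WT and 1023 in unnamed neutrophil-like cells (log2 ratio 6.41, 4.04 to 11.8), Prtn3 (proteinase 3) 1 and 1022 UMIs, and Elane (neutrophil elastase) 1 and 561 UMIs. Ctsg (cathepsin G) had 0 UMIs in WT and 186 in unnamed cells, at least 5.58-fold higher against a floor of 3 UMIs over the WT group. In the unnamed group these 4 genes came largely from a handful of cells, with 63.1 to 88.7% of the UMIs of each gene in 3 cells. Mpo was found in 16 of 577 unnamed and 1 of 86 WT cells. At least 3 of 1000 UMIs from the 4 genes were found in 9 of 577 unnamed (1.56%) and 0 of 86 WT cells, for which the Clopper-Pearson upper limit is 4.20%. The interval of the difference (-2.78 to 2.94 points) included 0 and covers counting error only, so no difference in promyelocyte-like cells is read from these counts. Cebpe, a transcription factor that drives secondary granule formation, had 6 UMIs in WT and 353 in unnamed cells, spread over many cells in the latter (6.23% in 3 cells), with a log2 ratio of 2.39 (1.27 to 3.86).

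Over the 20 granule genes compared in neutrophil-like cells, 9 were over 2-fold higher and 0 lower (median log2 ratio 0.85, all genes 0.16), beside 23.6% of all 8594 genes over 2-fold higher and 8.81% lower. Cell division genes were also higher, with 9 of 12 over 2-fold higher and 0 lower (median log2 ratio 1.68). The proliferation marker Mki67 had 24 UMIs in WT and 579 in unnamed cells, 91.7% of the WT UMIs in 3 cells. This ratio depended on the cells kept. Without cells that hold a UMI of any of 21 T, B and NK cell markers, which left 59 WT and 244 unnamed selected cells, the median of the cell division list turned to -0.45. At least 3 of 1000 UMIs from cell division genes were found in 3 of 86 WT and 46 of 577 unnamed cells, a difference of 4.48 points with an interval (-2.08 to 7.88) that included 0.

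**Figure D2:**
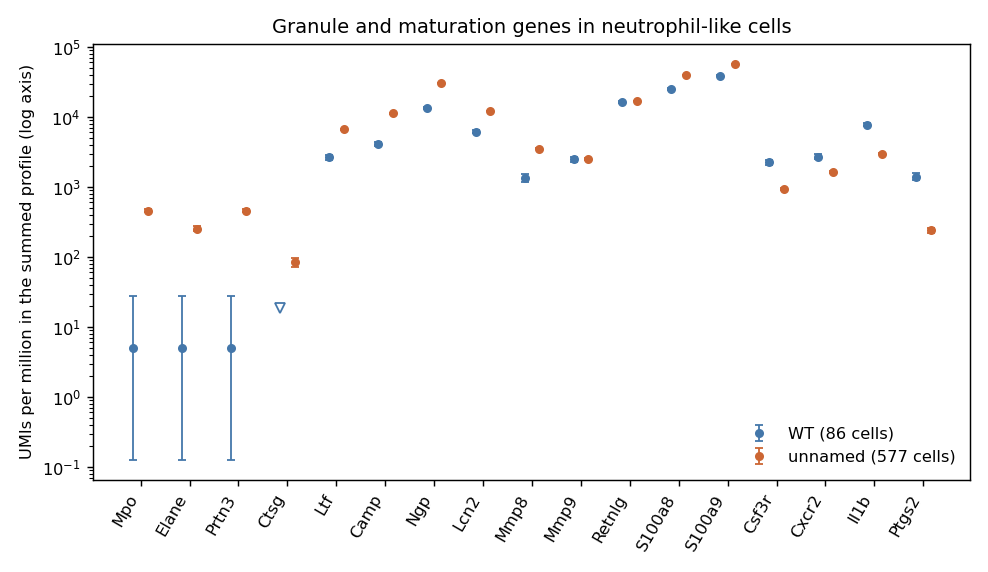
Level of granule and maturation genes in the summed profiles of neutrophil-like cells, in CPM on a log axis, for 86 WT and 577 unnamed cells with 95% exact Poisson intervals (the open triangle is the upper limit for a gene with no WT UMI). Secondary granule genes (Ltf to Lcn2) are higher in unnamed cells, Mmp9 and Retnlg lie together, and Csf3r, Cxcr2, Il1b and Ptgs2 are higher in WT. Primary granule genes (Mpo to Ctsg) are also higher in unnamed cells, but most of their UMIs there lie in a few cells, which the intervals do not show.

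The sequences before the start sites of Ltf and Ngp, both secondary granule genes, are shown because members of this group were higher together. They are RefSeq promoters of GRCm38.p6, from 250 bases before to 50 after the annotated start, in the direction of the gene. Capitals here and in the other promoters mark matches, on either strand, to 5 letter patterns: a C/EBP site (TTGCNNAA), a PU.1 site (GAGGAA), an interferon-gamma activated site or GAS (TTCNNNGAA), an interferon-stimulated response element or ISRE (GAAA repeated after a gap of 2 bases) and the Y box (CTGATTGG).
Ltf, chr9:111019042-111019341, plus strand: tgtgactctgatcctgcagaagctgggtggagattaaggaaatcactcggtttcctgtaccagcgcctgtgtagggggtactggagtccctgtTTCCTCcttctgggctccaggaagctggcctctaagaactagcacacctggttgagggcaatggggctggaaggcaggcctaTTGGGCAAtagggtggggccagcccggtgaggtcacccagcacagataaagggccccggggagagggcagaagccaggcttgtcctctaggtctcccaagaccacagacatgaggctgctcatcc
Ngp, chr9:110419558-110419857, plus strand: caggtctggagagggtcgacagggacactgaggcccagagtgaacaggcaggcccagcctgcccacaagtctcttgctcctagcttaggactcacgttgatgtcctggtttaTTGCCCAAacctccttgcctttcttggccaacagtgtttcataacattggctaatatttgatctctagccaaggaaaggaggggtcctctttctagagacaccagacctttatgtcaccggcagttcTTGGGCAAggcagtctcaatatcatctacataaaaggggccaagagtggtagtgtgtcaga
Ltf held a C/EBP match at -75 and a PU.1 match at -157, counted to the first base of the match from the start, and Ngp held C/EBP matches at -138 and -11. Camp held no match to any of the 5 patterns in this window. Of the 17 granule genes with a promoter in the table, 5 held a C/EBP match and 10 a PU.1 match, beside 12.2% and 31.2% of all 27025 genes with a promoter (10.8% and 28.3% of 32851 promoters). A match describes letters only, and no binding was measured here.

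Csf3r, Cxcr2 and Il1b were lower in CPM over the whole neutrophil-like class and close to WT once the maturing cells were set apart, whereas Ptgs2 was lower in both. Il1b, Csf3r and Ptgs2 were among the leading genes of cluster 1, which holds most of the cells set apart, so their levels there only describe the cells chosen. Csf3r, the G-CSF receptor, had a log2 ratio of -1.25 (-1.40 to -1.10), Il1b one of -1.36 (-1.44 to -1.28) and Ptgs2, the inducible cyclooxygenase, one of -2.54 (-2.75 to -2.33). In clusters 1 and 4 together, called mature neutrophil-like cells below (75 WT and 276 unnamed cells, joined after the clusters had been seen), Csf3r was at 2976 CPM in WT and 2737 CPM in unnamed cells (log2 ratio -0.12, -0.27 to 0.03). The chemokine receptor gene Cxcr2 was at 3521 and 3552 CPM (0.01, -0.13 to 0.15), and Il1b at 10481 and 10701 CPM (0.03, -0.05 to 0.11). Ptgs2 was still at 1893 CPM in WT and 777.5 CPM in unnamed mature cells (-1.28, -1.50 to -1.06).

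Immediate early genes, which rise in tissue dissociation as well as on activation, were lower in unnamed neutrophil-like cells. Of 20 such genes, 12 were over 2-fold lower and 0 higher (median log2 ratio -1.16), beside 8.81% and 23.6% of all genes, and their summed share of a cell's UMIs had a median of 5.65% in WT and 2.76% in unnamed cells. In mature neutrophil-like cells the medians were 5.87% and 4.72%, with Egr1 still at a log2 ratio of -1.56 (-1.71 to -1.41) and Ccl3, a chemokine gene, at -1.37 (-1.64 to -1.11). The share was also lower in nonclassical (4.57% and 2.84%) and classical monocyte-like cells (2.33% and 0.702%), in type 1 dendritic cell-like cells (2.44% and 1.94%) and in T cells (1.45% and 0.997%), and close in B cells (1.91% and 1.80%). In cluster 9 it was 2.88% in WT and 3.06% in unnamed cells. The part of handling in these or the following differences was not tested.

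Mature neutrophil-like cells of the unnamed group had higher levels of interferon-gamma target genes. Of 22 genes of this list compared, 16 were over 2-fold higher and 2 over 2-fold lower, with a median log2 ratio of 1.59 (1.55 with the gene at 0 in WT placed at its bound) beside -0.04 over all genes. Over all 4914 genes compared, 11.3% were over 2-fold higher and 9.77% lower. Gbp2, a guanylate-binding GTPase, had 12 UMIs in WT (81.7 CPM) and 470 in unnamed cells (805 CPM), a log2 ratio of 3.28 (2.48 to 4.26). Gbp7 of the same family had 8 and 290 UMIs (log2 ratio 3.16, 2.19 to 4.41), and Igtp, an immunity-related GTPase, 6 and 121 UMIs (2.30, 1.18 to 3.82). These UMIs were spread over cells in the unnamed group, where 3 cells held 8.97 to 14.9% of the UMIs of the 3 genes. Beside them, the 12 neutrophil markers summed to 70127 CPM in WT and 96189 CPM in unnamed cells, type 1 dendritic cell markers to 109 and 53.1 CPM, type 2 dendritic cell markers to 184 and 68.5 CPM, B cell markers to 320.1 and 324 CPM and T cell markers to 415 and 344 CPM. Plasmacytoid dendritic cell markers summed to 319 and 22.1 CPM in cluster 1, and the part of these markers in the ratios was not tested.

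Some genes of MHC class I antigen processing were higher in the same cells. Of the 12 genes of the class I list, 4 were over 2-fold higher and 0 lower (median log2 ratio 0.76), beside 11.3% and 9.77% of all 4914 genes. Psmb9, an immunoproteasome subunit, had 4 and 103 UMIs (log2 ratio 2.63, 1.30 to 4.60) and Tap1, a subunit of the peptide transporter, 11 and 159 UMIs (1.84, 0.98 to 2.89). H2-K1, a classical class I heavy chain, was at 906 CPM in WT and 2838 CPM in unnamed cells (1.65, 1.39 to 1.91), whereas B2m, the light chain, was under the fold at 2472 and 4891 CPM (0.98, 0.83 to 1.15). The nonclassical class I genes H2-Q7 (19 and 612 UMIs, log2 ratio 3.00, 2.36 to 3.76) and H2-Q6 (12 and 302 UMIs, 2.64) were also higher, but these near-identical genes can share reads and their split is uncertain. Of 26 genes better known as type I interferon targets, 10 were over 2-fold higher and 2 lower (median log2 ratio 0.81), beside the same shares of all genes. The difference between this list and the interferon-gamma list was not tested. Oasl2, an oligoadenylate synthetase-like gene, had 73 and 909 UMIs (1.64), whereas Rsad2, the antiviral gene viperin, had 63 and 210 UMIs (-0.25, -0.67 to 0.18).

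The 2 genes of the interferon-gamma list that were over 2-fold lower rested on few cells. Cxcl10, a chemokine gene, had 87 UMIs in WT and 80 in unnamed cells, with 90.8% of the WT UMIs in 3 cells, and Irf8, a transcription factor gene of monocytes and dendritic cells, had 23 and 12 UMIs with 100% of the WT UMIs in 3 cells. Cell by cell, the interferon-gamma list made up a median of 0.186% of UMIs in WT (quartiles 0.0945 and 0.267%) and 0.454% in unnamed cells (0.265 and 0.755%), so that the lower quartile of the unnamed cells lay near the upper quartile of WT. After thinning to 1000 UMIs, a Gbp2 UMI was found in 5 of 75 WT cells (6.67%) and 106 of 276 unnamed cells (38.4%). In T cells, with Gbp2 at 67.9 and 70.3 CPM, the shares were 6.45% and 6.57%.

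Because cluster 4 was itself led by interferon genes such as Ifit3 and Gbp2 and held 3 WT cells, the list was also read in cluster 1 alone, with 72 WT and 158 unnamed cells. There 7 of 18 genes were over 2-fold higher and 2 lower (median log2 ratio 0.78), beside 7.61% and 7.8% of all 4075 genes. Gbp2 had a log2 ratio of 1.91 (1.07 to 2.93) and H2-K1 one of 1.46 (1.20 to 1.74). With cells clustered without the genes of both interferon lists, the median of the interferon-gamma list in mature neutrophil-like cells was 1.59. Those clusters were matched to clusters 1 and 4 by overlap and held nearly the same cells, so this value is not a separate check. Across the other settings the median lay between 1.46 and 2.24.

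**Figure D3:**
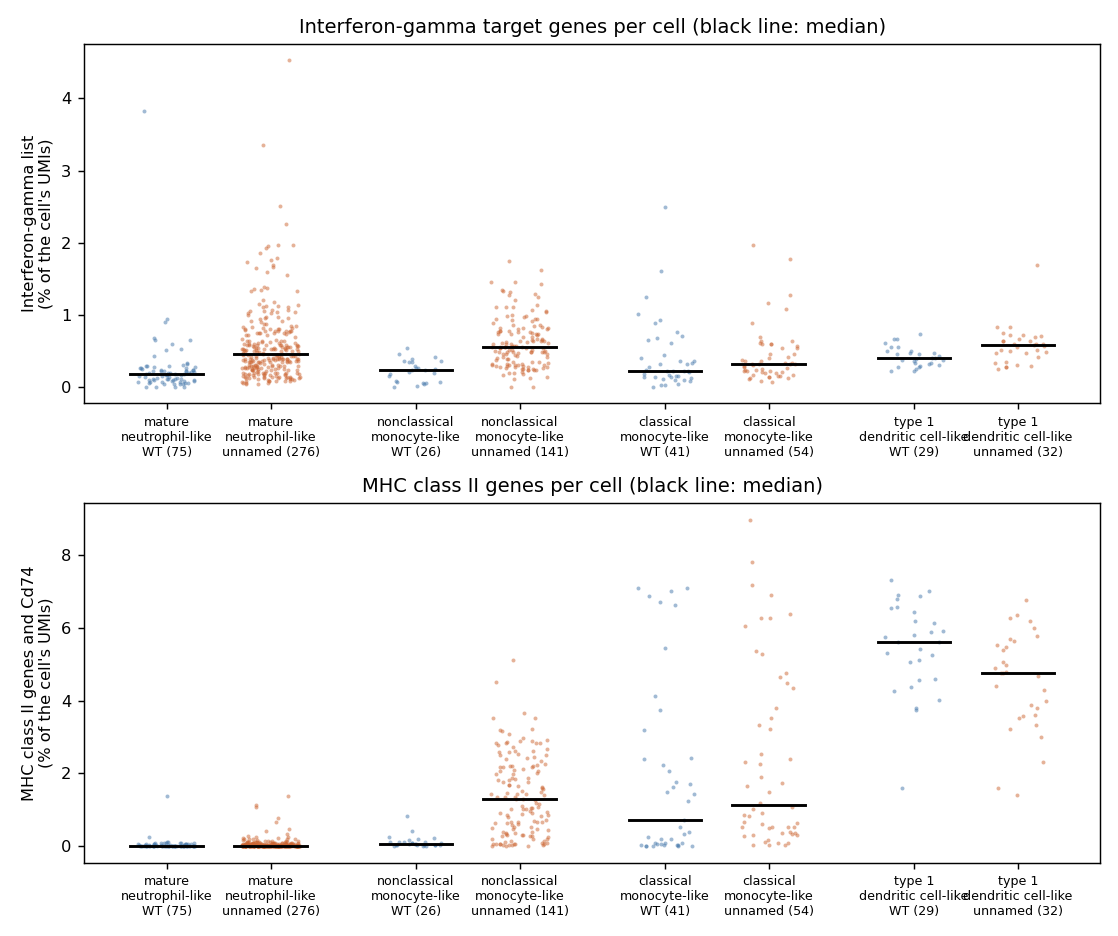
Share of each cell's UMIs that came from the interferon-gamma target list (upper panel) and from the MHC class II genes with Cd74 (lower panel), in percent, for WT and unnamed cells of 4 classes, with each point a cell and each black line the median. The median of the unnamed cells lies above that of the WT cells in all 4 classes of the upper panel, and the lower panel separates the groups in nonclassical monocyte-like cells.

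Promoters of 3 of these GTPase genes are shown as RefSeq gives them for GRCm38.p6, since these genes were higher together in unnamed mature neutrophil-like cells.
Gbp2, chr3:142620413-142620712, plus strand: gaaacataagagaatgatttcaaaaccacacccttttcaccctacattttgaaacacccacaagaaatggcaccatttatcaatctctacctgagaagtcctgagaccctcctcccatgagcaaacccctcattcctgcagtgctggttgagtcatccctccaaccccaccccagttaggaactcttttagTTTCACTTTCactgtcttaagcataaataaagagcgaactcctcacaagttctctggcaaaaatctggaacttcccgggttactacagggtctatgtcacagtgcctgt
Gbp7, chr3:142530086-142530385, plus strand: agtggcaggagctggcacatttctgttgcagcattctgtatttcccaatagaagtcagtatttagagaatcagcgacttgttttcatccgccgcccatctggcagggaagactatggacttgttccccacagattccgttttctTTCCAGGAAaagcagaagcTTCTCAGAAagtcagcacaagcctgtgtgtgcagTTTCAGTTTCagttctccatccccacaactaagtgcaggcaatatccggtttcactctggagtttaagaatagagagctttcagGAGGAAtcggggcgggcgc
Igtp, chr11:58199306-58199605, plus strand: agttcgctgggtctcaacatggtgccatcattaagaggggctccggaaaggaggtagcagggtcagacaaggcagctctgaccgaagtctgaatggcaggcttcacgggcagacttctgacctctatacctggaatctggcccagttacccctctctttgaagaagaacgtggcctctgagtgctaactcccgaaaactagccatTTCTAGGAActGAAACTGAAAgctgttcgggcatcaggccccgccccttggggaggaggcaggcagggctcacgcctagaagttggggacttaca
Gbp2 held an ISRE match at -59. Gbp7 held GAS matches at -106 and -87, an ISRE match at -53 and a PU.1 match at 31. Igtp held a GAS match at -45 and an ISRE match at -34, and none of the matches in these promoters overlapped. Of the 21 genes of the interferon-gamma list with a promoter in the table, 12 held an ISRE and 10 a GAS match, beside 3.99% and 9.55% of all 27025 genes with a promoter (3.44% and 8.30% of 32851 promoters).

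In nonclassical monocyte-like cells both the MHC class II genes and the interferon-gamma targets were higher in the unnamed group. Nonclassical monocytes patrol vessel walls and carry little class II at rest. The class held 26 WT and 141 unnamed cells with 72272 and 444120 UMIs. H2-Ab1, the beta chain of I-A, had 5 UMIs in WT (69.2 CPM) and 1082 in unnamed cells (2436 CPM), a log2 ratio of 5.10 (3.91 to 6.76). Its partner H2-Aa had 5 and 956 UMIs (log2 ratio 4.92, 3.73 to 6.59) and H2-Eb1, the beta chain of I-E, 1 and 604 UMIs (6.43, 4.13 to 11.9). Cd74, the invariant chain that guides class II to the endosome, was at 886 CPM in WT and 8176 CPM in unnamed cells (3.20, 2.85 to 3.59). H2-DMa, a subunit of the peptide exchanger, had 2 and 64 UMIs (2.30, 0.47 to 5.46), while the transactivator gene Ciita had 2 and 25 UMIs, a log2 ratio of 0.98 with an interval (-0.98 to 4.15) that included 0. Of 10 genes of the class II list compared, 7 were over 2-fold higher and 0 lower (median log2 ratio 2.75, or 6 genes and 2.00 with the gene at 0 in WT placed at its bound), beside 17.2% and 7.4% of all 6064 genes and a median of 0.08 over them.

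The difference was present in most cells rather than in a few. Class II genes with Cd74 made up a median of 0.0689% of UMIs in WT cells and 1.29% in unnamed cells (quartiles 0.0381 and 0.127%, and 0.482 and 2.21%), so the middle of the distributions did not overlap. After thinning to 1000 UMIs, H2-Ab1 was found in 1 of 26 WT cells (3.85%, 0.0973 to 19.6%) and 88 of 141 unnamed cells (62.4%, 53.9 to 70.4%). The same share in T cells, which should lack the gene, was 4.60% in WT and 4.81% in unnamed cells. These T cells were chosen with at least 3 Cd3e UMIs and no Cd79a or Lyz2 UMI. The WT share of H2-Ab1 is near theirs, but rests on 1 cell. Cd74 after thinning was found in 11.2% of WT and 12.1% of unnamed T cells. In the nonclassical monocyte-like class it was found in 13 of 26 WT (50%) and 129 of 141 unnamed cells (91.5%). Median depth before thinning was 2543 UMIs in WT and 2946 in unnamed cells. The 7 B cell markers summed to 429 CPM in WT and 322 CPM in unnamed cells, with Ms4a1, the CD20 gene, at 0 and 3 UMIs. The type 1 dendritic cell gene Xcr1 was at 0 and 4 UMIs and the 6 markers of that cell summed to 124.5 and 171 CPM. T cell markers summed to 179.9 and 353.5 CPM, classical monocyte markers to 2311 and 3371 CPM and neutrophil markers to 6752 and 8070 CPM, all higher in unnamed cells, and their part in these ratios was not tested. The median mitochondrial share was 4.60% in WT and 2.63% in unnamed cells. Of the 9 markers fixed for the class, 0 were over 2-fold higher and 1 lower, the fatty acid-binding protein gene Fabp4 (log2 ratio -1.22, -1.88 to -0.53), and the peptidase gene Ace was at 1536 and 1470.3 CPM (-0.06, -0.36 to 0.24).

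Most interferon-gamma targets were higher in these cells too. Of 23 genes compared, 17 were over 2-fold higher and 0 lower, beside 17.2% and 7.4% of all 6064 genes. However, 6 of the list genes had no WT UMI and were compared only through the unnamed cells. With these at their bounds, 14 were over 2-fold higher and the median log2 ratio was 1.71 in place of 2.10. Gbp2 had 0 and 139 UMIs, at least 7.54-fold higher, and Iigp1, an immunity-related GTPase, 0 and 66 UMIs, at least 3.58-fold higher. Psmb8, an immunoproteasome subunit, had 15 and 295 UMIs (1.67, 0.93 to 2.53), and Fcgr4, an activating Fc receptor of this monocyte type, 52 and 822 UMIs (1.36, 0.96 to 1.80). The type I list was near the background, with 5 of 23 genes over 2-fold higher, 2 lower and a median of 0.29. Isg15, a ubiquitin-like gene induced by type I interferon, had 4 and 22 UMIs (-0.15, -1.72 to 1.84).

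For 2 of the class II genes the RefSeq promoter of GRCm38.p6 is shown, because these chains were among the highest ratios in the nonclassical monocyte-like cells. Capitals mark the Y box, the element bound by NF-Y in class II promoters.
H2-Eb1, chr17:34305617-34305916, plus strand: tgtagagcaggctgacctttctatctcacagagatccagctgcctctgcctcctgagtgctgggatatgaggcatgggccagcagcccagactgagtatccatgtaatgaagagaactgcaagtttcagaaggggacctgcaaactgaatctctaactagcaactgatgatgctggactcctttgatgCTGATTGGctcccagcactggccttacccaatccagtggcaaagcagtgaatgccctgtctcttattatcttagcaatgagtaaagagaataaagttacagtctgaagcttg
H2-Aa, chr17:34287774-34288073, minus strand: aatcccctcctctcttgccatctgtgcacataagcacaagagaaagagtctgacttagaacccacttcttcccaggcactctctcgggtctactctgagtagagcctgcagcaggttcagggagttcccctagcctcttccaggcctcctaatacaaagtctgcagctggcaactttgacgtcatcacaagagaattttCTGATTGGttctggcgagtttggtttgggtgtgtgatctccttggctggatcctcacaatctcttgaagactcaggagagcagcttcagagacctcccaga
The match lay at -62 in H2-Eb1 and at -51 in H2-Aa, and neither window held a GAS or ISRE match. Of the 10 class II list genes with a promoter in the table, 3 held the Y box, beside 4.70% of all 27025 genes with a promoter (4.10% of 32851 promoters). The promoter of H2-Ab1 was not analysed here.

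The heat map of ratios by class sets these values beside the other classes. In classical monocyte-like cells (41 WT and 54 unnamed) 2 of 23 interferon-gamma targets were over 2-fold higher and 2 lower (median log2 ratio 0.08), beside 11.4% and 8.57% of all 6032 genes, and H2-Ab1 had 794 and 1396 UMIs (0.20, 0.08 to 0.33). By cell the class II values were further apart than this summed ratio, and 3 cells held 39.5% of the WT H2-Ab1 UMIs. After thinning, H2-Ab1 was found in 18 of 41 WT (43.9%) and 37 of 54 unnamed cells (68.5%), and class II genes with Cd74 made up a median of 0.730% and 1.13% of UMIs. Type 1 dendritic cell-like cells (29 WT and 32 unnamed) had high class II in both groups, with H2-Ab1 at 13967 CPM in WT and 11384 CPM in unnamed cells (-0.29, -0.37 to -0.22). There 3 of 12 interferon-gamma targets were over 2-fold higher and 0 lower (median 0.57), beside 10.3% and 5.61% of 6305 genes. In lymphocytes of the library, the median of the interferon-gamma list was 0.78 in B cells and -0.18 in T cells, although the summed share of the list per T cell had a higher median in the unnamed group (0.236% and 0.278%). The same share had medians of 0.229% in WT and 0.316% in unnamed classical monocyte-like cells. The medians were 0.406% and 0.578% in type 1 dendritic cell-like cells, 0.184% and 0.315% in cluster 9 and 0.155% and 0.271% in B cells. Iigp1 had 16 and 174 UMIs in B cells (3.81, 3.12 to 4.70). Whether the ratio differs between classes was not tested, since each class had a single profile per group.

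**Figure D4:**
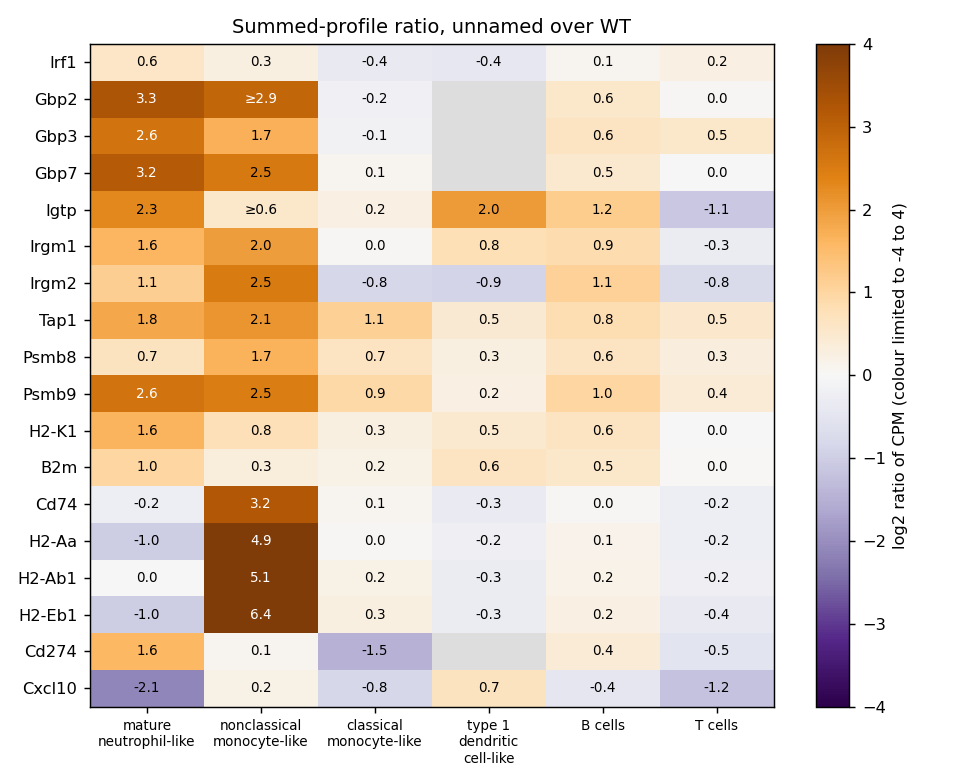
Log2 ratio of CPM, unnamed over WT, of interferon targets, MHC class I genes and MHC class II genes in 4 myeloid classes and in B and T cells of the library. Values marked with a greater-or-equal sign are bounds for genes with no WT UMI, grey fields had under 10 UMIs, and in nonclassical monocyte-like cells the class II genes run from 3.20 (Cd74) to 6.43 (H2-Eb1).

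In classical monocyte-like cells 2 of the 8 classical monocyte markers, Ly6c2 and F13a1, were over 2-fold higher in the unnamed group and 0 were lower (median log2 ratio 0.66), beside 11.4% and 8.57% of all genes in this class. Ly6c2, the defining surface antigen of inflammatory monocytes, was at 901 CPM in WT and 3615 CPM in unnamed cells (log2 ratio 2.00, 1.76 to 2.26), and F13a1, a coagulation factor gene of this class, at 179 and 517 CPM (1.52, 0.97 to 2.13). Cd209a, a lectin of monocyte-derived and type 2 dendritic cells, had 152 and 52 UMIs (-2.14, -2.64 to -1.69), with 55.9% of the WT and 57.7% of the unnamed UMIs in 3 cells. All 11 cell division genes compared were over 2-fold higher (median 4.14, or 3.27 with 3 genes at their bounds), but these came from few cells: Top2a, a topoisomerase of dividing cells, had 1 UMI in WT and 62 in unnamed cells, was found in 13 of 54 unnamed cells and had 74.2% of those UMIs in 3 cells. Of 12 chemokine genes 7 were over 2-fold lower and 0 higher (median -1.13), among them Cxcl2, which attracts neutrophils, with 367 and 136 UMIs (-2.04, -2.34 to -1.75). Markers of some other cell types moved too between the groups of this class. Neutrophil markers had 8 of 11 genes over 2-fold lower (4536 and 1411 CPM summed), migratory dendritic cell markers summed to 598 CPM in WT and 18.3 CPM in unnamed cells, type 2 dendritic cell markers to 1465 and 484 CPM and Kupffer cell markers to 464 and 99.0 CPM. Type 1 dendritic cell markers summed to 240.5 and 381 CPM, B cell markers to 268 and 407 CPM, plasmacytoid dendritic cell markers to 375 and 414 CPM and NK cell markers to 89.5 and 103 CPM, higher in unnamed cells. The median mitochondrial share of this class was 3.71% in WT and 4.48% in unnamed cells (upper quartiles 6.08% and 11.2%). The part of these markers and of cell quality in the other differences was not tested.

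Cluster 9 (15 WT and 10 unnamed cells) had its Kupffer cell markers at a summed 11767 CPM in WT and 11688 CPM in unnamed cells. H2-Ab1 had 7 and 41 UMIs there (log2 ratio 3.54, 2.50 to 5.07), but 3 of the 10 unnamed cells held 73.2% of them. Cell quality also differed in cluster 9, with a median mitochondrial share of 5.25% in WT and 14.2% in unnamed cells and a median depth of 7329 and 3002 UMIs. Cxcl9 in type 1 dendritic cell-like cells had 4 and 92 UMIs, with 98.9% of the unnamed UMIs in 3 cells, and is given as a value only.

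By summed counts 0 of 49 antibodies were over 2-fold higher and 7 lower in unnamed cells (14.3%), namely CD184, CD1d, CD200, CD366, CD69, NK-1.1 and TER-119. These sums rested on few cells, since 3 WT cells held 89.2% of the counts of the erythroid antigen TER-119 and 90.2% of those of CD200. By the median over cells of the centred natural-log ratio, 0 of the 7 passed the fold. The antibodies described next were chosen after their values were seen. All antibodies together had a median of 1280 counts per cell in WT and 1504.5 in unnamed cells, and the median counts below are not scaled for this. The median counts per cell of the most abundant antibody, the adhesion receptor CD44, were 624 in WT and 781 in unnamed cells. The Fc receptors CD16 and CD32, bound by a single antibody, had medians of 55 and 93 counts (centred natural-log difference 0.57), and CD43, a sialomucin of neutrophils and nonclassical monocytes, had 28 and 50 (0.68). The integrin chain CD49d, which is low on neutrophils, had 65 and 43 (-0.48), and the dendritic cell integrin CD11c 4 and 1 (-0.37). Within neutrophil-like cells CD16 and CD32 had 45.5 and 89 counts (0.82). No antibody to MHC class II was among the 49, so the class II transcripts have no protein value.

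**Figure D5:**
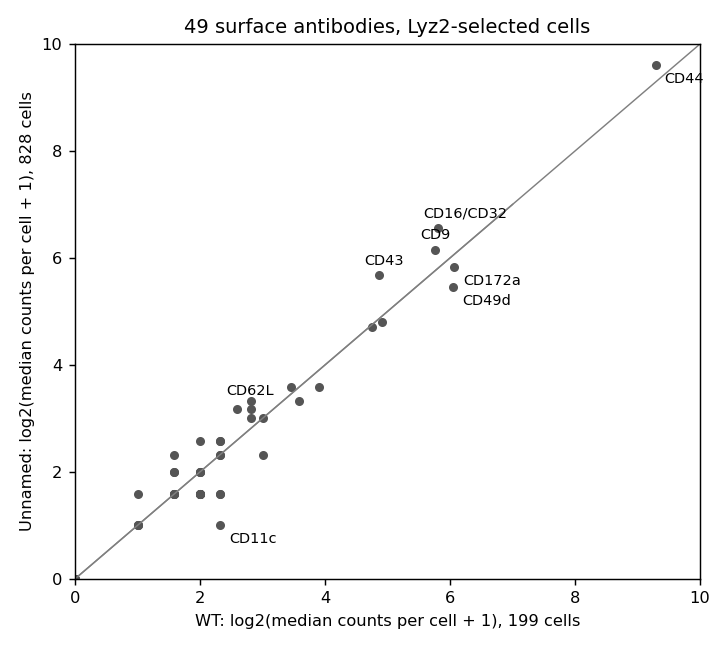
Median counts per cell of 49 antibodies in WT (horizontal) and unnamed (vertical) Lyz2-selected cells, as log2 of the median plus 1, with a line of equality. The counts are not scaled for the total antibody counts per cell, which had a higher median in unnamed cells. CD44, CD16/CD32 and CD43 lie above the line and CD49d, CD172a and CD11c below it.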

How the data were processed

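Reads had been aligned by the authors to mm10 with STAR in the BD Rhapsody pipeline, and the authors deposited error-corrected UMI counts per cell for both libraries. A deposited metadata table of cells kept by the authors gives a genotype and a cell type name. The filtered and normalised tables were not used here. The members and the gene lists were chosen with earlier results of these data known. UMI counts were summed per group and cell set without batch correction. Ratios of summed CPM have exact conditional binomial intervals, levels exact Poisson, shares Clopper-Pearson and differences of shares Newcombe intervals, all at 95%, and PCR and capture error are outside them. No test was run, since each group was 1 summed profile of 1 library with an unstated number of mice. Cells were clustered with leidenalg 0.10.2 on neighbours from scikit-learn 1.9.0 (1500 variable genes, 20 principal components, 15 neighbours, Leiden resolution 1) and named from fixed markers. Scrublet was run through scanpy 1.11.5. Ratios of classes with under 50 WT cells, the joined clusters 1 and 4, clusters without interferon genes, the S100a8 and S100a9 rule and the minimum of 100 UMIs were added after seeing the data. Named genes were Il12b, Il2ra, the list genes, antibodies past the fold, and the 10 highest and lowest ratios per class among genes with at least 100 UMIs together and 10 in each group, at most 50% of the higher group's UMIs in 3 cells, and the same direction with TMM scaling (edgeR 4.0.16), without ribosomal and mitochondrial genes and within the WT range of depth. That ranking excluded antigen receptor segments and sex-linked genes. Antibodies under the fold were named after their values were seen. The ratio code was checked on simulated counts.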

Additional observations from a re-analysis of the deposited data

How the results depend on the processing

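No paired analysis was possible because both groups come from 1 library, each as 1 summed profile with no replicate number. The interferon-gamma list in mature neutrophil-like and nonclassical monocyte-like cells and the class II list in the latter kept their direction under every setting run. Counts of genes depended on the minimum of UMIs, which also sets how many genes are compared. The gene counts below are not shares, since the number of genes compared also differs between these settings. With no minimum, genes over 2-fold higher and lower in unnamed cells numbered 3490 and 2408 in the whole selection, 5760 and 1632 in neutrophil-like, 3539 and 2004 in mature neutrophil-like, 2844 and 1778 in cluster 1 and 4235 and 1428 in nonclassical monocyte-like cells. With at least 100 UMIs they numbered 323 and 244, 331 and 172, 46 and 11, 11 and 4, and 43 and 9 in the same order. With cells thinned to 1000 UMIs, 954 and 476 genes were higher and lower in neutrophil-like, 261 lower in mature neutrophil-like, and 588 higher and 286 lower in nonclassical monocyte-like cells. With at least 10 Lyz2 UMIs, 1786 genes were lower in the whole selection and 268 in mature neutrophil-like cells, 184 were higher and 143 lower in cluster 1, the neutrophil-like share differed by 47.9 points and members per 100 cells by 1.66. The S100a8 and S100a9 rule gave a difference of 2.77 per 100 cells. Without cells holding T, B or NK marker UMIs, 857 genes were higher and 490 lower in neutrophil-like cells, 244 lower in mature neutrophil-like cells, 152 lower in cluster 1 and 521 higher in nonclassical monocyte-like cells. There the cell division median (-0.45) and Olfm4 (-0.37) reversed in neutrophil-like cells. Lists with a median over 2-fold higher in the whole selection (3) became 5 with no minimum and 1 without marker-positive cells, and lists lower (8) became 5 without those cells and 5 at 100 UMIs. In neutrophil-like cells lists higher (2) became 1 in the UMI and mitochondrial range of WT, without marker-positive cells and at 100 UMIs, 5 with equal weight per cell, 4 thinned and 9 with no minimum. Lists lower there (3) became 1 without doublets, with equal weight and at 10 Lyz2 UMIs, and 0 thinned and without marker-positive cells. With classes taken from the nearest annotated WT cells, cells named Neu among those named Neu or Mono differed by 33.9 points in place of 21.1, but that name also covers cluster 3, and clusters 3, 5 and 8 together differed by 39.4 points. Antibodies over 2-fold lower (7) became 0 by the centred ratio. The cause was not tested. The 26 WT nonclassical monocyte-like cells and 86 WT neutrophil-like cells limit every ratio in these classes.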
